A study of Mus musculus with 6 samples.

Results

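The genes described here encode the nuclear subunits of the oxidative phosphorylation complexes, measured in sorted mouse bone marrow stem and progenitor cells after an induced deletion in Raptor. Members were chosen by gene symbol alone: Nduf genes of the A, B, C, S and V series (complex I), Sdha to Sdhd (complex II), Uqcr genes and Cyc1 (complex III), Cox4 to Cox8 genes (complex IV), Atp5 genes (complex V) and Cycs (cytochrome c). On the array 83 of 18193 genes met this rule, of which 35 belonged to complex I, 4 to complex II, 9 to complex III, 17 to complex IV, 17 to complex V and 1 was Cycs. The genes Cox7b, Ndufa11 and Ndufs6 are not analysed here.

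RNA from 6 samples was measured, 1 array each. The 3 mutant arrays came from mice of C57BL/6 background with both Raptor alleles floxed at exon 6 and with the MxCre transgene, whose Cre recombinase is driven by an interferon-responsive promoter and is therefore not limited to blood cells. The 3 wild type arrays came from mice with the same floxed alleles and no MxCre, so no group carried Cre without floxed alleles. All mice were injected 3 times over 5 days with pIpC, an interferon inducer (15 µg per g), and Flt3-Lin-Sca1+cKit+ cells were sorted 5 weeks afterwards. Age and sex are not in the labels, and neither is the number of mice behind an array, so the p-values rest on array-to-array spread that may be technical.

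Oxidative phosphorylation passes electrons from NADH through complex I, and from succinate through complex II, to ubiquinone, then through complex III, cytochrome c and complex IV to oxygen. Complexes I, III and IV pump protons, and complex V, the ATP synthase, uses the gradient to make ATP. Each of complexes I, III, IV and V also holds subunits encoded by mitochondrial DNA, which are not among the genes here. Haematopoietic stem cells are known for low reliance on respiration relative to their progeny. Raptor defines mTORC1, a growth-regulating kinase complex that is known to promote mitochondrial respiration, partly through the translation of mRNAs of mitochondrial proteins, a step that RNA arrays do not measure, and in mouse muscle through the transcription factor YY1.

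Transcription of these genes is known to depend on NRF1, on the ETS factor GABP, on YY1 and on the CCAAT-binding factor NF-Y. Promoter windows of 300 bases, 250 before and 50 after the start, were matched for 67 of the 83 members in the RefSeq table for GRCm38.p6. On either strand, the NRF1 letters (GCGC, AT and GCGC in a row) were found in 4 of the 67 windows (6.0%), against 1.6% of the windows of 14368 genes on the array. The ETS letters CCGGAAG were found in 17 windows (25.4%, against 13.7%), the YY1 letters AAGATGGC in 9 (13.4%, against 3.7%) and the letters CCAAT in 29 (43.3%, against 38.0%). By complex, the YY1 letters stood in 6 of 31 windows of complex I and 3 of 15 of complex V, and in 0 of 3, 0 of 5 and 0 of 12 windows of complexes II, III and IV. The E-box letters CACGTG, which MYC binds, stood in 9.0% of the members' windows and in 8.8% of those of array genes. A match describes letters and is not evidence of binding.

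The 250 bases before the start are printed for the 5 members with the smallest p in the comparison below, and for Cox6a1, the widely expressed form of a complex IV subunit, which holds 3 of the motifs. Capitals mark matches to the NRF1, ETS, YY1 or CCAAT letters on either strand. All are read 5′ to 3′ on the gene's own strand, in GRCm38.p6.
Cox7a1: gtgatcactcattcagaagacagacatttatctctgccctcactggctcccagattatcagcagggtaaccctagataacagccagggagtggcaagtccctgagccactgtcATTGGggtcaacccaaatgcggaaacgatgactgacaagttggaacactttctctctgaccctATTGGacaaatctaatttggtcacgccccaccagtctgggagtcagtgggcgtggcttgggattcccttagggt
Atp5b: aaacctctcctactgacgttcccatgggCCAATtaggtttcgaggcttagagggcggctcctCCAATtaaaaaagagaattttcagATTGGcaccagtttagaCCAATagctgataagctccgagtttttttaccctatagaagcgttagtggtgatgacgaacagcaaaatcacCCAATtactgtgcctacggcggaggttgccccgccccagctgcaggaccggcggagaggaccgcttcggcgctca
Ndufs7: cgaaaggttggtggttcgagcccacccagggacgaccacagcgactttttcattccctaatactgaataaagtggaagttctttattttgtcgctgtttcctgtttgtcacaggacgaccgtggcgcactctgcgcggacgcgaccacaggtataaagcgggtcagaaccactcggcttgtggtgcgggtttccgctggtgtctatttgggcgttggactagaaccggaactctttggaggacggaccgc
Ndufb1: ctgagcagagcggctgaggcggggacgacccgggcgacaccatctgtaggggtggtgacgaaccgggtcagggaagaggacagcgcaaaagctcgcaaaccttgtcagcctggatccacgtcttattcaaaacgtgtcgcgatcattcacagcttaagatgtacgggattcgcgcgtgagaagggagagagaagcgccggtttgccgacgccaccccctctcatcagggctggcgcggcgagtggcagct
Atp5k: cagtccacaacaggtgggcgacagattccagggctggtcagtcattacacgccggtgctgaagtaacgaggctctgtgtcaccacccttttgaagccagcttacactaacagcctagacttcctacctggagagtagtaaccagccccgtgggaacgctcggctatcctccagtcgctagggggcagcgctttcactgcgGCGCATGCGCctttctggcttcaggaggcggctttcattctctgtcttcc
Cox6a1: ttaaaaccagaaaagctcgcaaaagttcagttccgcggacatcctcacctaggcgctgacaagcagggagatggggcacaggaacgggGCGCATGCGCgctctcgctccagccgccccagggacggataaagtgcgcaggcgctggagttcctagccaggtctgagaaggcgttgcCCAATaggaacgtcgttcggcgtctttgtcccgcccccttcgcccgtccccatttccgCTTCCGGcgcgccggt
These windows lie at chr7:30183921-30184170, plus strand (Cox7a1), chr10:128083057-128083306, plus strand (Atp5b), chr10:80249199-80249448, plus strand (Ndufs7), chr12:101975739-101975988, minus strand (Ndufb1), chr5:108434400-108434649, minus strand (Atp5k) and chr5:115348959-115349208, minus strand (Cox6a1). The window of Atp5b held 5 CCAAT matches and that of Cox7a1 held 2, with no NRF1, ETS or YY1 match in either. In these 250 bases Atp5k held 1 NRF1 match, starting 50 bases before the start, and its 300-base window also held an ETS match that lies at least partly after the start. The Cox6a1 window held an NRF1, a CCAAT and an ETS match, starting 162, 74 and 16 bases before the start. Ndufs7 and Ndufb1 held no match in these 250 bases, and the 300-base window of Ndufs7 held a YY1 match at least partly after the start.

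The log2 signal of an array had a median of 6.85 to 6.94 and a lower quartile of 5.15 to 5.37. The gate marker gene Kit averaged 10.79 ± 0.13 in mutant and 10.90 ± 0.24 in wild type arrays (log2 signal, SD, n = 3 each), Ly6a (Sca1) is not analysed here, and Flt3 RNA, whose protein was absent by the gate, averaged 9.96 ± 0.28 in mutant and 10.15 ± 0.64 in wild type arrays. The brightest probe set of Rptor, the gene of Raptor, had a log2 fold change of 0.22 ± 0.29 (SE, adjusted p = 0.77, limma), and the position of its probes within the gene was not analysed here, so that it does not check the deletion. The arrays also differed in sex-linked RNA. Kdm5d, which lies on the Y chromosome, had log2 signals of 3.69, 3.79 and 3.88 in the mutant, against 3.60, 10.55 and 9.53 in wild type arrays 1 to 3, so that wild type array 1 was the only wild type array without Y-linked signal. Marker lists of other cells moved with genotype: the summed intensity of 6 mast cell and basophil genes was 4873 to 7982 in mutant and 2030 to 2621 in wild type arrays, and that of 6 granulocyte genes was 1776 to 5521 in mutant and 18062 to 26675 in wild type arrays. The summed intensity of 7 macrophage and dendritic cell genes was 3489 to 7670 in mutant and 1415 to 1571 in wild type arrays, and that of 5 stem cell genes was 3829 to 4340 in mutant and 6979 to 7709 in wild type arrays. The log2 fold change was above 0 in 6 of 6 mast cell and basophil genes, 6 of 7 macrophage and dendritic cell genes, 0 of 6 granulocyte genes and 1 of 5 stem cell genes measured. Of these lists, 1 granulocyte gene and 1 stem cell gene fell (limma, adjusted p under 0.05). Of the other lists, the 5 T and NK cell genes summed to 2721 to 3750 in mutant and 1732 to 2349 in wild type arrays, and 1 of them rose, while the 4 megakaryocyte genes summed to 1656 to 2671 in mutant and 4154 to 4432 in wild type arrays. Their part in the values below was not tested.

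The comparison asks whether loss of Raptor changed the RNA of the respiratory complexes. No subunit gene passed the test. By limma with Benjamini-Hochberg adjustment over all 18193 genes, 0 of 83 members were called at an adjusted p under 0.05, where 0.11% of all genes (20) were called, 0.055% higher and 0.055% lower. At an unadjusted p under 0.05 there were 5 members, 2 higher and 3 lower, or 6.02%, where 10.0% of all genes reached it, 5.81% higher and 4.24% lower. The 3 mutant values lay wholly above the 3 wild type values in 9 members and wholly below in 6, together 18.1%, where 16.1% of all genes had groups that did not overlap, 8.08% above and 7.98% below. Against all genes, the first of these shares lay below the background and the second near it. Log2 fold changes, mutant minus wild type, ran from -0.86 (Cox7a1) to 0.67 (Ndufs7), with a median of -0.02 and 37 of 83 members above 0 (44.6%). Over all genes the median was -0.07, and 40.4% of genes were above 0. The members are bright: 75 of 83 lay above the middle of all genes by mean signal. Among the 9097 brighter genes above that middle the median was 0.06 with 58.5% above 0. The 75 members there had a median of -0.02 and 46.7% above 0. An unadjusted p under 0.05 (limma) was reached by 4.0% of these 75 members, against 14.02% of the brighter genes. Groups did not overlap in 17.3% of these members, against 20.6% of the brighter genes. After cyclic loess normalization 38.6% of the 83 members lay above 0, against 49.4% of all genes, so whether the members' share lay above or below that of all genes turned with the scaling.

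The precision bounds what could have been missed. The 95% interval of the log2 fold change lay within -1 and 1, a 2-fold change either way, in 78 of 83 members, against 80.2% of all genes. The 5 members whose interval reached past these bounds were Ndufs7, Ndufb4, Ndufs1 and Ndufb1 of complex I and Cox7a1 of complex IV. In bulk samples, fewer cells of a type and less RNA per cell cannot be told apart. Members varied less within mutant than within wild type arrays, with a median SD of 0.109 and 0.225 on the log2 scale, and the SD was larger in wild type in 67 of 83 members. Over all genes the median SD was 0.158 in mutant and 0.286 in wild type arrays.

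**Figure D1:**
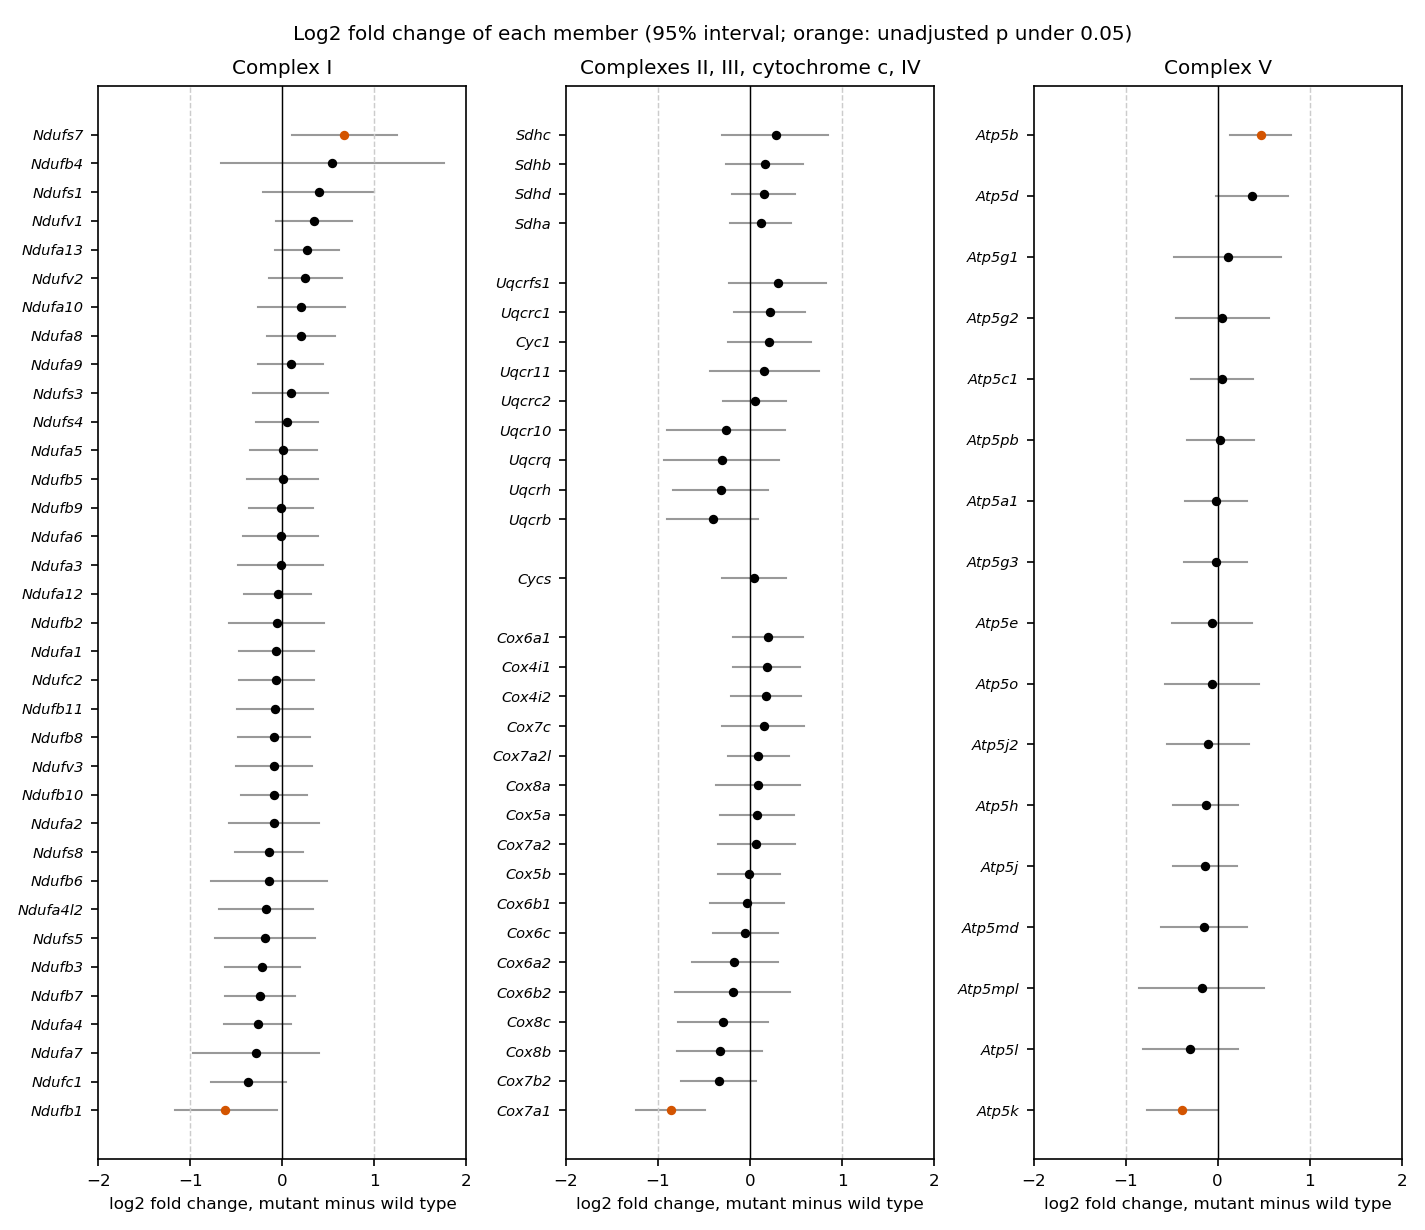
Log2 fold change, mutant minus wild type, of each of the 83 members (dots) with its 95% interval (lines), by complex; orange dots have an unadjusted p under 0.05 in limma. In 78 members the interval lies between the dashed lines at -1 and 1, and the 5 orange dots are Ndufs7, Ndufb1, Cox7a1, Atp5b and Atp5k.

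Complex I oxidises NADH. Of its 35 measured genes 13 had a log2 fold change above 0, with a median of -0.06 and 0 called. The core subunits, most of which bind the flavin or iron-sulfur clusters, differed in sign from most accessory subunits. Of the core genes 5 of 6 lay above 0 with a median of 0.30, against 8 of 29 accessory genes with a median of -0.07. The difference between core and accessory genes was not tested. These roles are textbook ones, and the split into roles here and in complexes III to V was examined after values were seen.

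Ndufs7, the subunit that holds the last iron-sulfur cluster before ubiquinone, had log2 signals of 11.84, 12.44 and 12.79 on mutant arrays 1 to 3, against 11.66, 11.60 and 11.79 on the wild type arrays. All mutant values lay above all wild type values, but mutant array 1 stood only just above them. The log2 fold change of Ndufs7 was 0.67 ± 0.25 (SE, adjusted p = 0.44, limma). Leaving out mutant array 1 gave 0.93 and leaving out mutant array 3 gave 0.46. A second Ndufs7 probe set had a log2 fold change of 0.27 ± 0.20.

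Ndufv1, which binds NADH and the flavin, had 11.70, 11.93 and 12.23 on mutant arrays, against 11.60, 11.56 and 11.66 on the wild type arrays. Ndufv2, its iron-sulfur partner, had 11.69, 11.76 and 11.87 on mutant arrays, against 11.26, 11.67 and 11.64 on the wild type arrays. In neither gene did the groups overlap, and their log2 fold changes were 0.34 ± 0.18 and 0.25 ± 0.17 (SE), both short of the test. All 3 probe sets of Ndufv1 gave values between 0.31 and 0.34, whereas the 2 other probe sets of Ndufv2 gave -0.10 ± 0.19 and -0.15 ± 0.18. Ndufs1, the largest core subunit, had 10.66, 10.58 and 10.45 on mutant arrays, against 10.46, 10.47 and 9.57 on the wild type arrays, so its log2 fold change of 0.40 ± 0.26 came with 1 low wild type value. Of the other core subunits, Ndufs3 had one of 0.09 and the iron-sulfur subunit Ndufs8 one of -0.15.

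Among accessory subunits, Ndufb1 of the membrane arm had 6.54, 6.86 and 6.97 on mutant arrays, against 6.98, 7.44 and 7.80 on the wild type arrays. The groups did not overlap, though mutant array 3 and wild type array 1 were nearly level. Its log2 fold change was -0.62 ± 0.24 (SE, adjusted p = 0.46, limma). It was -0.19 when only wild type array 1 was kept for wild type. Ndufb1 is dim, at percentile 44.7 of all genes by mean signal. Of the 9096 genes below the middle by mean signal, 22.3% had a log2 fold change above 0, with a median of -0.15. Ndufc1, also of the membrane arm, had a log2 fold change of -0.37 ± 0.18, with 11.97, 12.23 and 12.16 on mutant arrays, against 12.23, 12.60 and 12.64 on the wild type arrays. Its second probe set gave -0.04 ± 0.36. Ndufb7 had a log2 fold change of -0.24 with groups that did not overlap, and its second probe set gave -0.65 ± 0.26. Ndufa7 had one of -0.29, and its other probe sets gave -0.24, -0.14, -0.08 and -0.00. Ndufa13, also known as GRIM-19, had one of 0.27 ± 0.15, and its groups did not overlap.

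Ndufb4 had the widest interval of all members, from -0.67 to 1.76. Its values were 6.21, 7.06 and 7.67 on mutant arrays, against 6.21, 5.60 and 7.49 on the wild type arrays. For all members, probe sets naming further genes were left out. Ndufa4, named for complex I and now assigned to complex IV, had a log2 fold change of -0.27 ± 0.15 with groups that did not overlap. Ndufa4l2, a relative known for its induction in hypoxia, had one of -0.18 ± 0.22. The X-linked subunits Ndufa1 and Ndufb11 had log2 fold changes of -0.07 ± 0.18 and -0.08 ± 0.18, and the 95% intervals ran from -0.47 to 0.34 and from -0.49 to 0.33. Wild type array 1 was the lowest of the 6 arrays in both, at 11.86 for Ndufa1 and 12.68 for Ndufb11.

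Complex II, succinate dehydrogenase, also serves the TCA cycle and is wholly nuclear-encoded. All 4 genes had a log2 fold change above 0, with a median of 0.15, and none passed the test. Sdha, the flavin subunit that oxidises succinate, had 12.86, 12.76 and 12.70 on mutant arrays, against 12.72, 12.60 and 12.64 on the wild type arrays. Sdhb, the iron-sulfur subunit, had a log2 fold change of 0.16 ± 0.18 (SE). Those of the membrane anchors Sdhc and Sdhd were 0.28 ± 0.25 and 0.15 ± 0.15. The groups overlapped in each of the 4 genes. The median of complex II was 0.09 after cyclic loess normalization and 0.24 with the mean of each gene's probe sets.

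Complex III passes electrons from ubiquinol to cytochrome c. Of its 9 genes 5 lay above 0, with a median of 0.05 and 0 called, and the groups overlapped in all 9. The 4 core genes had a median of 0.21 and all lay above 0. They were Uqcrfs1, the Rieske iron-sulfur protein (0.30 ± 0.23, SE), Cyc1, cytochrome c1 (0.21 ± 0.19), and the core proteins Uqcrc1 (0.22 ± 0.17) and Uqcrc2 (0.05 ± 0.15). Uqcrfs1 had 9.91, 9.71 and 10.48 on mutant arrays, against 9.75, 9.89 and 9.56 on the wild type arrays. Mutant array 3 alone stood apart.

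The 5 small subunits of complex III had a median of -0.31, with 1 above 0. Uqcrb, which lines the ubiquinone site, had 12.21, 12.00 and 12.36 on mutant arrays, against 12.31, 12.98 and 12.48 on the wild type arrays, a log2 fold change of -0.40 ± 0.21 (SE). Uqcrh, the hinge protein, had 12.61, 12.57 and 12.44 on mutant arrays, against 12.42, 13.25 and 12.89 on the wild type arrays. In Uqcrh, Uqcrq, Uqcr10 and Uqcr11 wild type array 2 lay above wild type array 3, and wild type array 1 was level with or below the lowest mutant value. The log2 fold changes of these 4 genes were -0.32, -0.31, -0.26 and 0.15. Cycs, cytochrome c itself, which also triggers apoptosis once released, had 12.43, 12.49 and 12.50 on mutant arrays, against 12.34, 12.40 and 12.56 on the wild type arrays. For Cycs the log2 fold change was 0.04 ± 0.15, with a 95% interval from -0.30 to 0.39.

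Complex IV reduces oxygen. Of its 17 genes 8 lay above 0, with a median of -0.01, which was 0.02 after a further quantile normalization, and 0 called. Several of its subunits exist in paired forms, 1 in most tissues and 1 in few. Of the 10 genes of the widely expressed kind, including the supercomplex factor Cox7a2l, 7 lay above 0 with a median of 0.08, and of 7 tissue-restricted forms 1 lay above 0 with a median of -0.29. These kinds differ in brightness: the 10 widely expressed genes were among the brighter genes named above, of which 58.5% lay above 0, and 5 of the 7 restricted forms were among the 9096 dimmer ones, of which 22.3% lay above 0 with a median of -0.15. Of those 5 forms 1 lay above 0, a share near that background.

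Cox7a1, the form of heart and skeletal muscle, had the smallest p of all 83 members. It had 5.06, 4.81 and 4.78 on mutant arrays, against 5.75, 5.62 and 5.87 on the wild type arrays. The mutant values lay wholly below the wild type values, by more than the spread within either group, and also below the lower quartile of every array. Its log2 fold change was -0.86 ± 0.16 (SE, unadjusted p = 0.00081, adjusted p = 0.15, limma), and the adjusted p ran from 0.079 to 0.52 over the alternatives. Cox7a2, its widely expressed counterpart, had 12.62, 12.91 and 12.73 on mutant arrays, against 12.42, 12.86 and 12.79 on the wild type arrays, with overlapping groups and a log2 fold change of 0.07 ± 0.18.

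Other pairs gave smaller values. Cox6a1, widely expressed, had a log2 fold change of 0.20 ± 0.16 (SE), and Cox6a2, of heart and muscle, one of -0.17 ± 0.20. Cox4i1 had 12.77, 12.76 and 12.84 on mutant arrays, against 12.43, 12.69 and 12.72 on the wild type arrays. Its groups did not overlap. The fold change of Cox4i1 was 0.18 ± 0.16 (log2), and that of Cox4i2, the form known from lung and hypoxia, was 0.17 ± 0.17. Values of -0.03 and -0.19 were found for Cox6b1 and the testis form Cox6b2, and of 0.09, -0.33 and -0.29 for Cox8a, Cox8b and Cox8c. Cox7b2, also of testis, had log2 signals of 3.40 to 3.55 on mutant and 3.52 to 3.96 on wild type arrays, below the lower quartile of all arrays, and a log2 fold change of -0.34 ± 0.18. Of the remaining genes, Cox5a and Cox7a2l had log2 fold changes of 0.08 and 0.09, Cox5b and Cox6c of -0.01 and -0.05 and Cox7c one of 0.15.

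**Figure D2:**
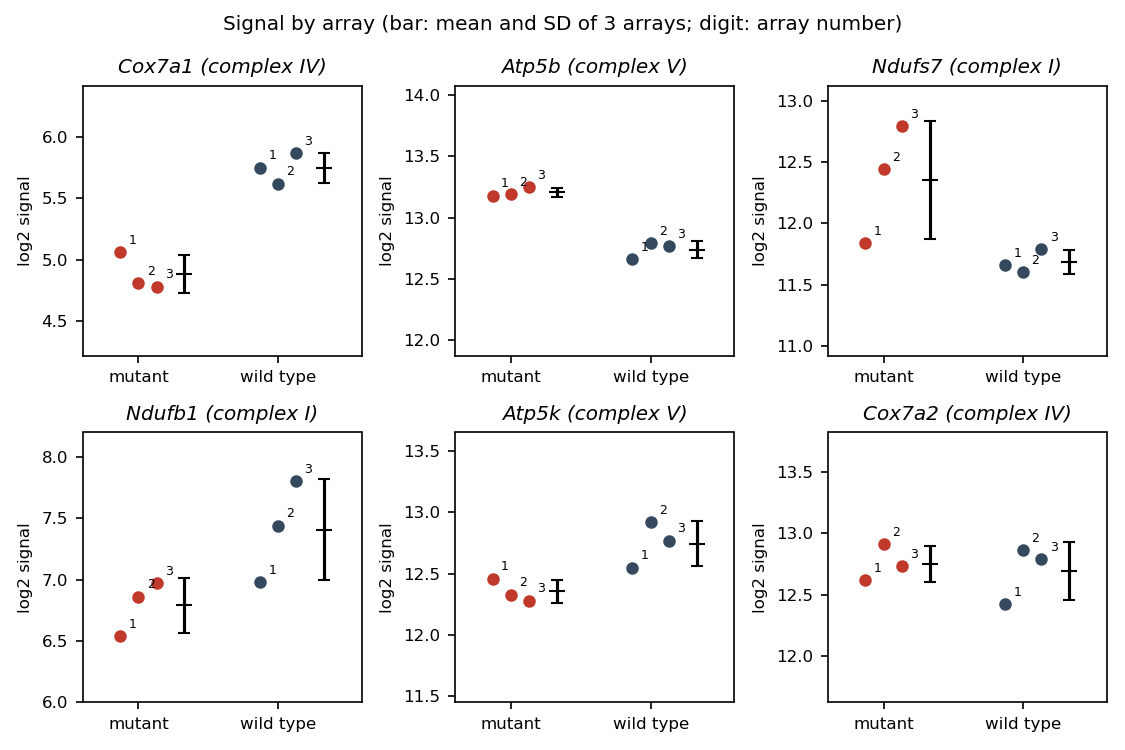
Log2 signal on each array (points, with array number) and mean ± SD of 3 arrays (bars) for the 5 members with an unadjusted p under 0.05 and for Cox7a2, the widely expressed counterpart of Cox7a1; all panels span the same number of log2 units. Mutant points lie wholly to one side of wild type points in the first 5 panels, and overlap them in that of Cox7a2.

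Complex V makes ATP. Of its 17 genes 6 lay above 0, with a median of -0.06 and 0 called. Atp5b, the catalytic beta subunit of the F1 head, had 13.18, 13.19 and 13.25 on mutant arrays, against 12.66, 12.79 and 12.77 on the wild type arrays. The gap between the groups was wider than the spread within either. Its log2 fold change was 0.47 ± 0.14 (SE, unadjusted p = 0.012, adjusted p = 0.34, limma), with a 95% interval from 0.13 to 0.80. The value was between 0.43 and 0.54 under every alternative run, with adjusted p from 0.057 to 0.85.

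Of the other F1 genes, Atp5a1, the alpha subunit that alternates with beta in the head, had 13.76, 13.71 and 13.60 on mutant arrays, against 13.71, 13.74 and 13.67 on the wild type arrays, a log2 fold change of -0.02 with a 95% interval from -0.35 to 0.32. Its other probe sets gave 0.32 ± 0.16 and 0.00 ± 0.14. Atp5d, the delta subunit of the central stalk, had 12.10, 12.22 and 12.28 on mutant arrays, against 11.60, 11.88 and 12.01 on the wild type arrays, a log2 fold change of 0.37 ± 0.17. Its groups did not overlap, and its second probe set gave 0.34 ± 0.30. Atp5c1 (gamma) and Atp5e (epsilon) had log2 fold changes of 0.05 and -0.06, and a dimmer probe set of Atp5c1 gave 0.38 ± 0.19. The median of the 5 F1 genes was 0.05 with 3 above 0, and 0.21 with 4 above 0 when each gene's probe sets were averaged. No difference between F1 genes was tested.

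Atp5g1, Atp5g2 and Atp5g3 encode the c subunit that forms the rotating ring, and their mature proteins are known to be identical. Their log2 fold changes were 0.11 ± 0.25, 0.05 ± 0.22 and -0.02 ± 0.15 (SE), with overlapping groups in each. Of the peripheral stalk genes, Atp5pb had a log2 fold change of 0.03, Atp5o, which confers oligomycin sensitivity, one of -0.06, Atp5h one of -0.13 and Atp5j one of -0.14.

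The 5 small membrane subunits all had a log2 fold change below 0, with a median of -0.17 and a range from -0.39 to -0.11. Atp5k, subunit e, which helps pair ATP synthases in the inner membrane, had 12.46, 12.33 and 12.28 on mutant arrays, against 12.55, 12.92 and 12.77 on the wild type arrays. Its groups did not overlap, and its log2 fold change was -0.39 ± 0.16 (SE, adjusted p = 0.49, limma). The 2 other probe sets of Atp5k gave -0.29 and -0.33. Atp5l, subunit g, had 10.75, 10.99 and 11.08 on mutant arrays, against 10.79, 11.47 and 11.45 on the wild type arrays. In both genes wild type array 1 lay nearest to the mutant arrays, and with it as the only wild type array their values were -0.19 and 0.15.

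**Figure D3:**
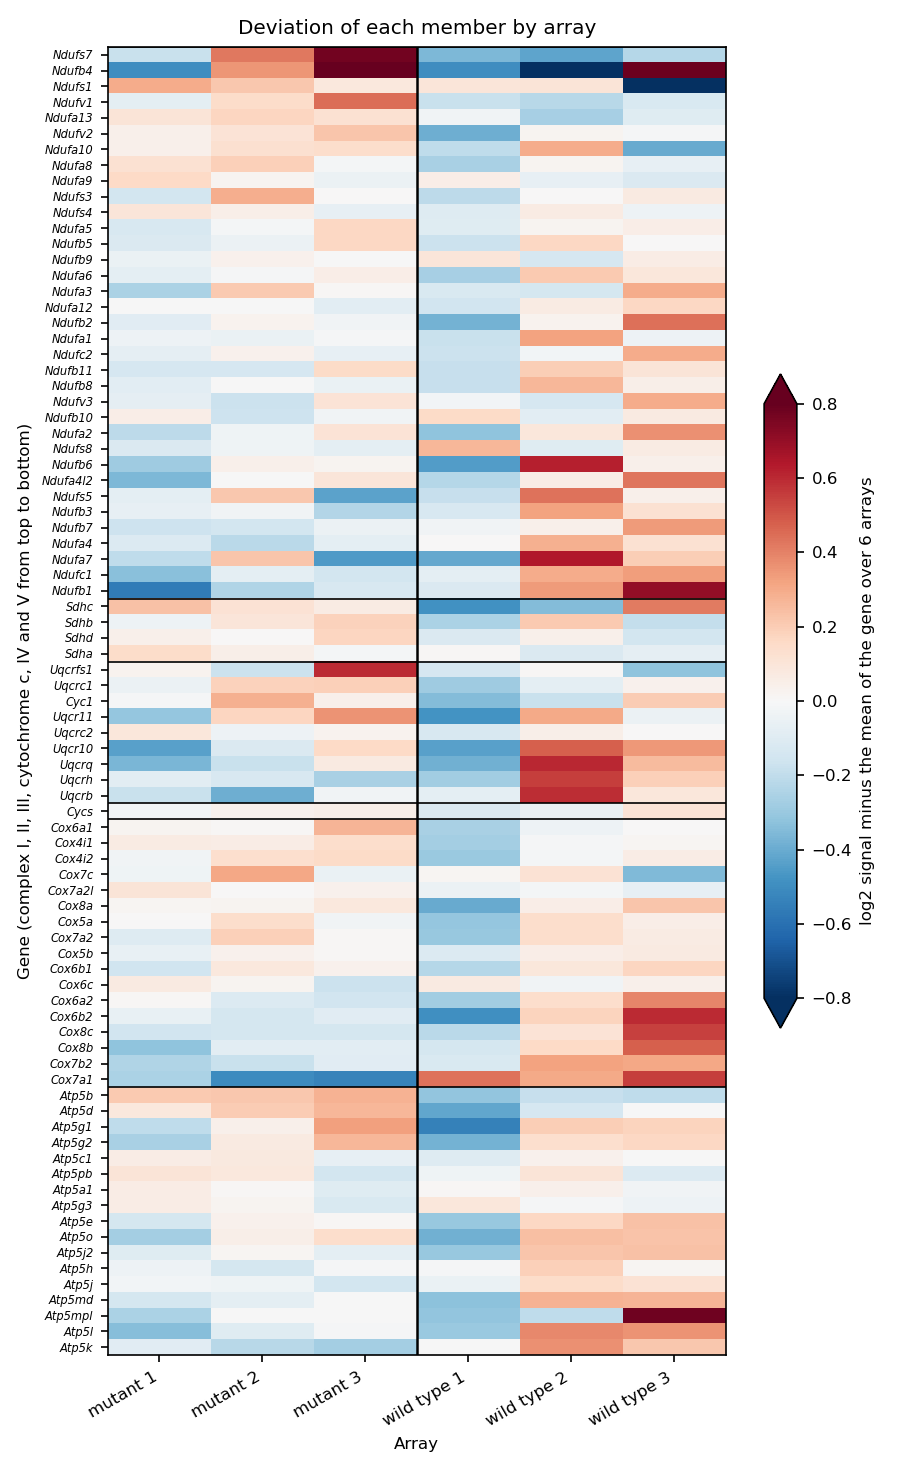
Log2 signal of each of the 83 members (rows, by complex) on each array (columns) minus the mean of that gene over the 6 arrays, from blue (lower) to red (higher), cut at -0.8 and 0.8. The column of wild type array 1 is mostly blue, unlike those of wild type arrays 2 and 3.

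The array that was most often lowest for these genes was a wild type one. Wild type array 1 held the lowest of the 6 values in 45 of 83 members (54.2%), against 21.6% of all genes and 15.9% of the brighter genes named above. The median deviation of members from their own mean over the 6 arrays was -0.07, 0.02 and 0.00 on mutant arrays 1 to 3, and -0.18, 0.09 and 0.07 on wild type arrays 1 to 3 (log2). For the members, the mutant arrays thus lay between wild type array 1 and the other wild type arrays. Over all genes, wild type array 1 correlated more closely with the mutant arrays (r = 0.986, 0.985 and 0.981) than with wild type arrays 2 and 3 (0.973 each). Wild type arrays 2 and 3 had r = 0.966 with each other and 0.968 to 0.972 with the mutant arrays. By complex the deviation on wild type array 1 was -0.18 for I, -0.18 for II, -0.29 for III, -0.23 for IV and -0.30 for V.

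The sign of the members' median turned with the arrays used. With wild type arrays 2 and 3, which carried Y-linked signal, left out, the median of the 83 members was 0.15, with 64 above 0 (77.1%), where the median of all genes was 0.04 and 58.1% lay above 0. With wild type array 1 left out the median was -0.09, with 30 above 0 (36.1%), where the median of all genes was -0.11 and 38.9% lay above 0. In that fit 1 member was higher and 14 were lower at an unadjusted p under 0.05, where 21.65% of all genes reached it, and 0 members were called. Leaving out wild type array 3, wild type array 2 or mutant array 1 gave medians of 0.04, 0.02 and 0.01. Y-linked signal and the other differences of wild type array 1 cannot be told apart here.

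The medians of the core genes kept their sign with and without this array. The median of the complex I core genes was 0.30 with wild type array 1 as the only wild type array and 0.23 without it, and that of the complex III core genes was 0.34 and 0.11. For the accessory genes of complex I they were 0.14 (21 of 29 above 0) and -0.17 (7 of 29), and without wild type array 3 the median was 0.01 (16 of 29). For the small subunits of complex III these medians were 0.23 and -0.54, and for the small membrane subunits of complex V they were 0.23 and -0.37. For the tissue-restricted forms of complex IV they were 0.07 and -0.48, and for its widely expressed genes 0.27 (9 of 10 above 0) and -0.04 (4 of 10). With the mean of each gene's probe sets 4 of these 10 widely expressed genes lay above 0. Complex I core, complex II and complex III core genes kept a median above 0 in all 17 alternatives in which they were recomputed, scaling alternatives included. Part of these alternatives could not move the medians: trend and robust fitting, the replicate block and the filters on dim genes left these log2 fold changes as they were. No difference between roles was tested.

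**Figure D4:**
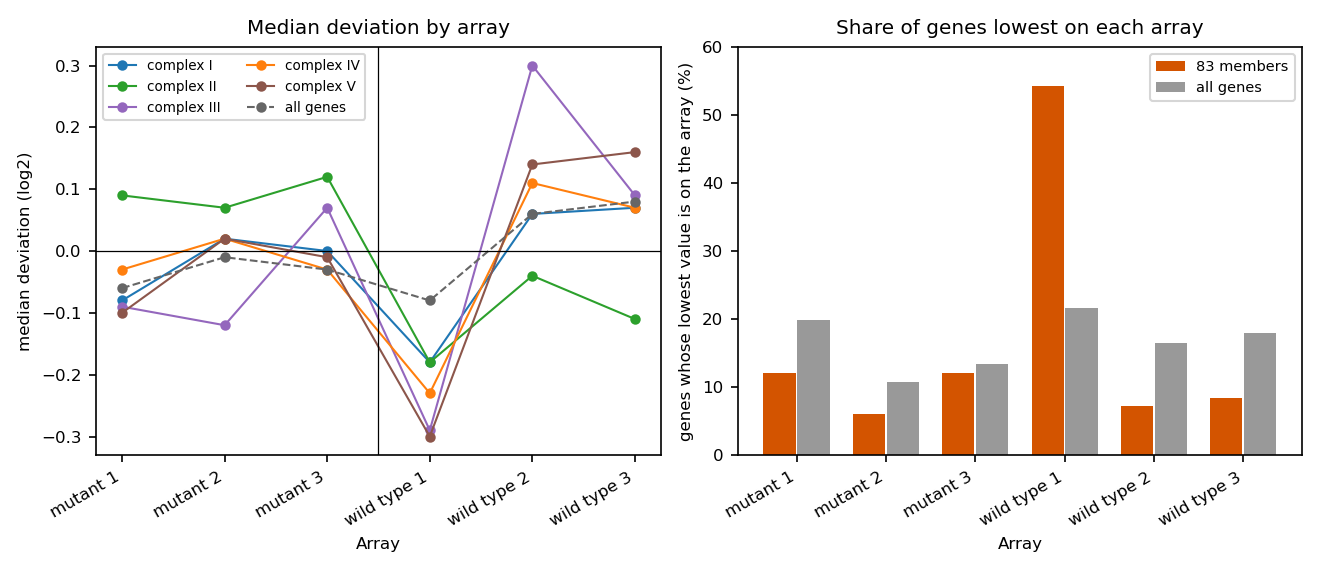
Left, median deviation of the members of each complex and of all genes (dashed) from each gene's mean over 6 arrays, by array (log2). Right, share of genes whose lowest value lies on the array, for the 83 members and for all genes (%), with wild type array 1 at 54.2% for members and 21.6% for all genes.

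In lists of other mitochondrial genes, too, no gene was called. Of 44 measured assembly factors 31 lay above 0, with a median of 0.16. At an unadjusted p under 0.05 (limma) 6 were higher and 1 lower, or 15.91%. That p was reached by 10.0% of all genes and by 14.02% of the brighter genes named above, a share near that of the assembly factors. The share above 0 was 70.5%, against 40.4% of all genes and 58.5% of the brighter genes named above. Atpaf1, which assembles the F1 head around the beta subunit, had 9.64, 9.51 and 9.57 on mutant arrays, against 8.97, 8.68 and 8.25 on the wild type arrays, a log2 fold change of 0.94 ± 0.21 (SE, adjusted p = 0.18, limma). Timmdc1, an assembly factor of complex I, had one of 0.65 ± 0.19. Sdhaf2, which inserts the flavin into Sdha, had one of -0.39 ± 0.15. In each of these 3 genes the groups did not overlap.

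Of 15 regulators of mitochondrial biogenesis 12 lay above 0, with a median of 0.07. Ppargc1b, the coactivator PGC-1beta, had 9.2, 9.0 and 9.31 on mutant arrays, against 8.51, 7.57 and 7.47 on the wild type arrays. All mutant values lay above all wild type values, and wild type array 1 was the nearest to them. Its log2 fold change was 1.32 ± 0.28 (SE, adjusted p = 0.17, limma). Myc, which drives growth and mitochondrial genes, had 12.78, 12.84 and 12.77 on mutant arrays, against 12.58, 12.24 and 12.33 on the wild type arrays, a log2 fold change of 0.41 ± 0.16.

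Of 19 genes of mitochondrial gene expression 14 lay above 0, with a median of 0.16. The mitochondrial DNA helicase gene Twnk had 10.22, 10.26 and 10.38 on mutant arrays, against 9.61, 9.72 and 9.69 on the wild type arrays, a log2 fold change of 0.61 ± 0.14 (SE, adjusted p = 0.22, limma). Lrpprc, which stabilises mitochondrial mRNAs, had one of 0.65 ± 0.17. Of 17 TCA cycle and pyruvate entry genes 13 lay above 0, with a median of 0.18. Among them Ogdh, of the oxoglutarate dehydrogenase complex, had a log2 fold change of -0.56 ± 0.21, and the pyruvate dehydrogenase subunit Dlat one of 0.64 ± 0.28.

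Of 23 protein import genes 20 lay above 0, with a median of 0.13. Tomm20, a receptor of the outer membrane, had a log2 fold change of 0.41 ± 0.15 (SE). Of 9 antioxidant enzymes 6 lay above 0, with a median of 0.01. Of 9 carriers and pores 5 lay above 0, with a median of 0.02, and the ADP/ATP carrier gene Slc25a4 had a log2 fold change of 0.27 ± 0.15. Of 76 mitochondrial ribosomal protein genes, all measured, 43 lay above 0, with a median of 0.06. The difference between these medians and the subunit genes' median of -0.02 was not tested, and for part of the lists the order turned with the arrays. With wild type array 1 as the only wild type array the subunit genes' median was 0.15, against 0.08 for the TCA cycle, 0.02 for mitochondrial gene expression, 0.14 for the regulators, 0.12 for antioxidant enzymes and 0.12 for carriers. Leaving out 1 array gave medians from 0 (without wild type array 3) to 0.25 for the TCA cycle, from 0.07 (without mutant array 1) to 0.2 for mitochondrial gene expression and from 0.06 to 0.18 (without mutant array 2) for the regulators. For assembly factors it gave 0.09 (without wild type array 3) to 0.19, for protein import 0.11 (without wild type array 3) to 0.2 (without wild type array 2), for antioxidant enzymes 0.01 to 0.06, for carriers -0.03 to 0.06 and for ribosomal proteins 0.01 to 0.13.

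**Figure D5:**
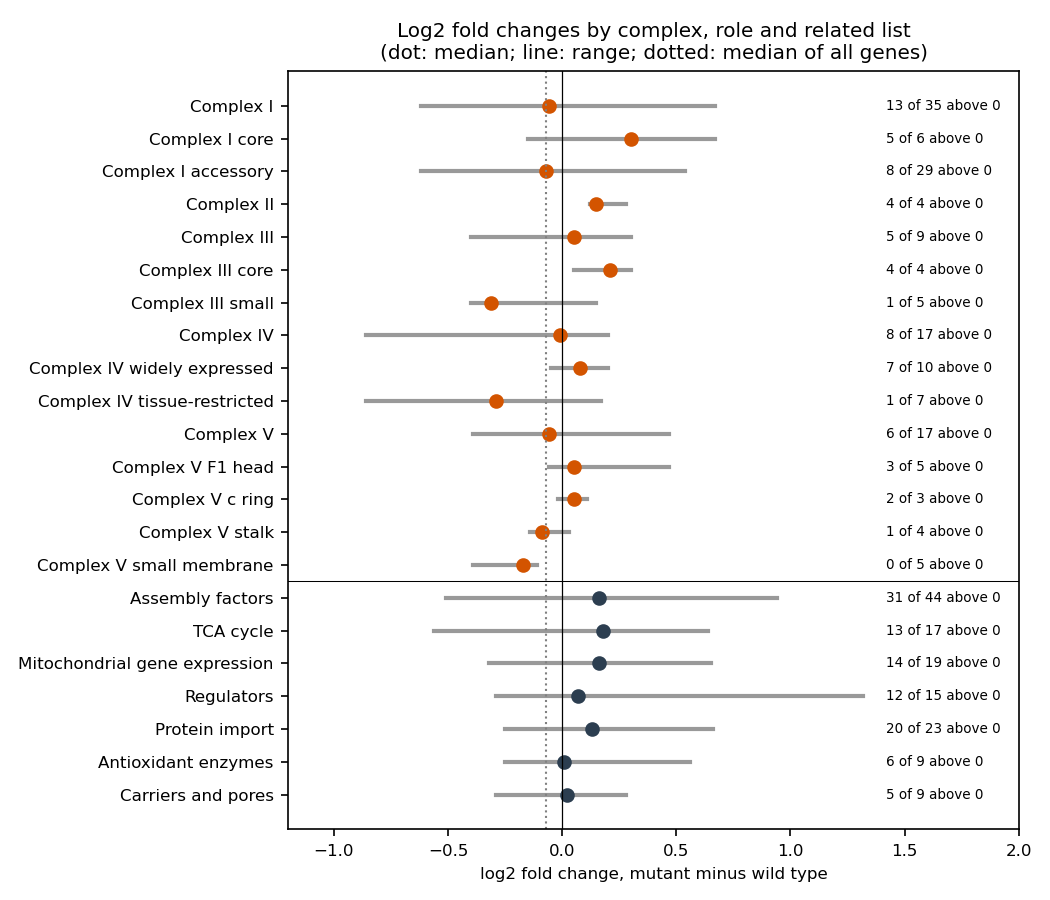
Median (dots) and range (lines) of log2 fold changes, mutant minus wild type, for each complex and for roles within complexes (orange), and for related mitochondrial lists (dark), with the number of genes above 0 at the right and the median of all genes, -0.07, dotted. The medians of the core genes of complexes I and III and of complex II lie to the right of 0, and those of the small subunits of complexes III and V to the left, while the ranges of the complex I core and complex III small subunits span 0.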

How the data were processed

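RNA of 6 samples, 3 mutant and 3 wild type, was amplified (Ovation Pico WTA) and measured on single-colour arrays. Per the submitters' processing notes the authors used RMA, with no version stated in those notes. The deposited values are intensity on a linear, not a log, scale (7.6 to 33795), so log2 was taken. No 2 arrays shared more than 99 of 45101 values. Array data carry no read depth, and the number of arrays limits the precision.

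Probe sets were named through the platform annotation. Of 45101, 64 were controls, 9160 named no gene, 932 several and 34945 a single gene. For each of 18193 genes the probe set with the highest mean over 6 arrays was used. The members had 169 probe sets, 21 of the 83 chosen ones are of types that may bind related transcripts, and 9 naming a further gene were left out. All 83 members passed into the test, which had no filter, and 75 passed a filter on the lower 50% of genes. Of 86 further probe sets of members, 31 had the opposite sign to the chosen one, in 22 members.

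The test was that of limma 3.58.1 (R 4.3.3; lmFit, eBayes), mutant minus wild type, with no covariate, and p-values were adjusted by Benjamini-Hochberg over all genes. On simulated data over 18193 genes this called 29 of 75 genes changed 2-fold, 62 of 75 changed 4-fold and 50 of 50 changed 8-fold, with 4 false calls. The simulated noise was independent between genes and had the same SD in both groups. In the data the median SD was 0.158 in mutant and 0.286 in wild type arrays, so these rates may not hold for the real arrays.

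Members and lists were chosen with earlier results of these data known. Named are members with an unadjusted p under 0.05, up to 3 per direction and complex with the largest change, all of complex II, Cycs, tissue-restricted and paired forms, X-linked members, called genes and up to 2 per direction of each other list, and the check genes Rptor, Xist, Eif2s3y and Kdm5d. Other members, such as Ndufv2, were chosen after their values were seen. The role groups follow textbook roles and were made after values were seen. Alternatives were scalings, probe set rules, filters, trend and robust fitting, array weights, the block, Y-linked signal (mean of Eif2s3y and Kdm5d) and each array left out.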

Additional observations from a re-analysis of the deposited data

How the results depend on the processing

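The count of 0 members called at an adjusted p under 0.05 held in all alternatives. At an adjusted p under 0.10 it was 0 in the fit as reported, while the smallest adjusted p over the alternatives was 0.057 for Atp5b and 0.079 for Cox7a1. At an unadjusted p under 0.05 it was 5. Over all genes the count of 20 became 0 with Y-linked RNA as a covariate or without the arrays that carry it, 8 with array weights, 12 with every probe set, 6 after quantile normalization again, 40 with trend and robust fitting, 49 at an adjusted p under 0.10 and 1828 at an unadjusted p under 0.05. The deviations of same-numbered arrays from their group means had correlations of r = 0.18, -0.03 and 0.06 across genes. These values cannot exclude a pairing by number, since arrays of unlike number were not compared. With the replicate number as a block the count was 10 with no member called. Leaving out 1 array gave 5 (without wild type array 3) to 31 (without wild type array 1), with 10 and 9 without mutant arrays 1 and 3. The Y-linked covariate gave medians of 0.15 for all members and 0.13, 0.27, 0.29, 0.15 and 0.16 for complexes I to V, and with those arrays left out they were 0.15, and 0.14, 0.26, 0.28, 0.19 and 0.23. Both leave wild type array 1 as the only comparator. The complex II median was 0.09 with cyclic loess, 0.23 with every probe set and 0.24 with the mean of probe sets. For complex III the median was -0.13 with every probe set and 0.09 with the mean of probe sets, and for complex IV -0.03 and -0.08. Leaving out 1 array moved the medians between -0.09 and 0.04 for all members, -0.13 and 0.02 for I, 0.11 and 0.19 for II, -0.05 and 0.09 for III, -0.07 and 0.05 for IV and -0.17 and 0 for V. Of 728 recomputed values of 41 named members, 668 moved by less than 1 SD between replicates, 43 changed sign, in 18 members, and 0 became called. Part of the 728 log2 fold changes could not move. Trend and robust fitting, the block, the filters and the use of every probe set leave that of a chosen probe set as it was. The 5 members with an unadjusted p under 0.05 kept their sign. Beyond what the alternatives' construction shows, the cause was not tested.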
